A study of Mus musculus with 335 samples.

Results

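Itga4 and Vcam1 are 2 of the 13448 genes with a symbol in a table of RNA levels from single cells of the aorta-gonad-mesonephros (AGM) region, an embryonic site where haematopoietic stem cells arise. The embryos were wild-type mice of stage E11.5, and all cells were sequenced by Smart-seq2, a full-length method with 1 library per cell. The genes were chosen by name as a receptor subunit and its ligand, with their levels in these cells already known, so every level below is a description and none is tested. The HSC group held 65 EPCR+CD45+ cells, a sort that takes in the haematopoietic stem cells along with other blood progenitors. The Dorsal group held 93 cells sorted as Ngfr+Pdgfrb- from dorsal of the aorta, and the Ventral group 89 cells of the same phenotype from ventral of it. The Mesenchymal group held 88 Pdgfrb+Ngfr- cells, also ventral, which include the mesenchyme under the aorta. Each group was 1 sequencing pool and no label names an animal or a litter, so each group counted as 1 sample and cells were not used as replicates. A difference between groups cannot be told apart from a difference between pools.

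Itga4 encodes the alpha4 integrin subunit. It pairs with the beta1 subunit (Itgb1) to form VLA-4, or with beta7 (Itgb7), and the receptor binds Vcam1, an immunoglobulin-family membrane protein, as well as fibronectin. In adult bone marrow VLA-4 holds haematopoietic stem and progenitor cells against stromal and endothelial cells that carry Vcam1, and Vcam1 is also found on resident macrophages. Mouse embryos that lack either gene die in mid-gestation with defects of the placenta and heart, and alpha4 integrin is also carried by migrating neural crest cells in chick and mouse.

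The Itga4 gene (ENSMUSG00000027009.18) lies on the plus strand at chr2:79255426-79333123 and Vcam1 (ENSMUSG00000027962.14) on the minus strand at chr3:116109949-116129688, both on build GRCm38 in GENCODE M21. Of 5 annotated Itga4 transcripts only 1 is coding, with 28 exons and 9767 bases. Vcam1 has a coding transcript of 9 exons and 3469 bases and a shorter one of 5 exons and 2532 bases, besides an incomplete fragment and a retained intron, and counts per gene do not separate them. The 250 bases before the Itga4 start are shown because Itga4 was detected both in blood cells and in neural crest-like cells. They are credited to RefSeq (GRCm38.p6, plus strand, chr2:79255176-79255425). Capitals mark, in order, an Ets core (GGAA, here on the minus strand), a GC box (GGGCGG) and a Runx core (TGTGGT, here on the minus strand).
Itga4: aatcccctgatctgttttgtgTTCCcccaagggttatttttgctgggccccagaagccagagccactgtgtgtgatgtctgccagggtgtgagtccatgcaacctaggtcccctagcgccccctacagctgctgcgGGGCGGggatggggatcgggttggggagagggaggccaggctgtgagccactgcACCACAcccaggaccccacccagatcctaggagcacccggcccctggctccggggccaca
The 3 motifs start at bases 22, 137 and 191 of the window and do not overlap. On both strands, the same letters occur in 93.4% (Ets core), 32.7% (GC box) and 14.05% (Runx core) of 32851 promoter windows of this length. The GATA core GATAA, held by 22.6% of the windows, was not in this one, nor were the Sox core ACAAAG (16.5% of the windows) and the TATA box TATAAA (12.4%). A match is a description of letters and not a bound site. For Vcam1 only the position above is given.

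Counts over genes with a symbol summed to 82516453 in HSC cells, 108409099 in Dorsal cells, 110598792 in Ventral cells and 68560755 in Mesenchymal cells. The median cell held between 505916 (Mesenchymal) and 1033890 (Dorsal) counts. The deepest cell held 8.60% of the counts in HSC cells, 3.56% in Dorsal cells, 18.5% in Ventral cells and 9.04% in Mesenchymal cells. The genes behind the sort followed the labels. Procr, which encodes EPCR, stood at 163 counts per 1000000 (CPM) in HSC and at 1.45 CPM or less in each other group, and Pdgfrb at 127 CPM in Mesenchymal and at 2.05 CPM or less elsewhere. Ngfr had 281 CPM in Dorsal cells and 90.9 CPM in Ventral cells, against 7.32 CPM in Mesenchymal and 0.19 CPM in HSC. Ptprc, which encodes CD45, stood at 279 CPM in HSC but also at 35.2 CPM in Dorsal cells and 33.8 CPM in Ventral cells. A group's CPM below is its summed count of a gene relative to its total over all genes with a symbol, and their 95% limits are exact Poisson limits that cover counting error only.

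Itga4 was highest in Dorsal and HSC cells, lower in Ventral cells and lowest in Mesenchymal cells. Summed Itga4 counts were 21416 in HSC cells, 37693 in Dorsal cells, 10328 in Ventral cells and 2678 in Mesenchymal cells, or 260 CPM (256 to 263) in HSC, 348 CPM (344 to 351) in Dorsal, 93.4 CPM (91.6 to 95.2) in Ventral and 39.1 CPM (37.6 to 40.6) in Mesenchymal. HSC cells spread over a broad range above 0, whereas each Ngfr+ pool mixed cells at or near 0 with cells at high levels. Across the 65 HSC cells, Itga4 per cell ran from 17.98 CPM through a median of 132 CPM to 726 CPM. Across the 93 Dorsal cells it ran from 0 through a median of 252 CPM to 1476 CPM. Across the 89 Ventral cells it ran from 0 through a median of 18.8 CPM to 1009 CPM. No HSC cell and 1 Dorsal cell were at 0, against 22 Ventral cells. In the 88 Mesenchymal cells the median was 1.60 CPM, the upper quartile 8.57 CPM and the highest cell 385 CPM, and 38 cells were at 0. The cells of all 4 groups overlapped in level. The lowest HSC cell, at 17.98 CPM, stood above the upper quartile of the Mesenchymal cells and close to the median of the Ventral cells.

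**Figure D1:**
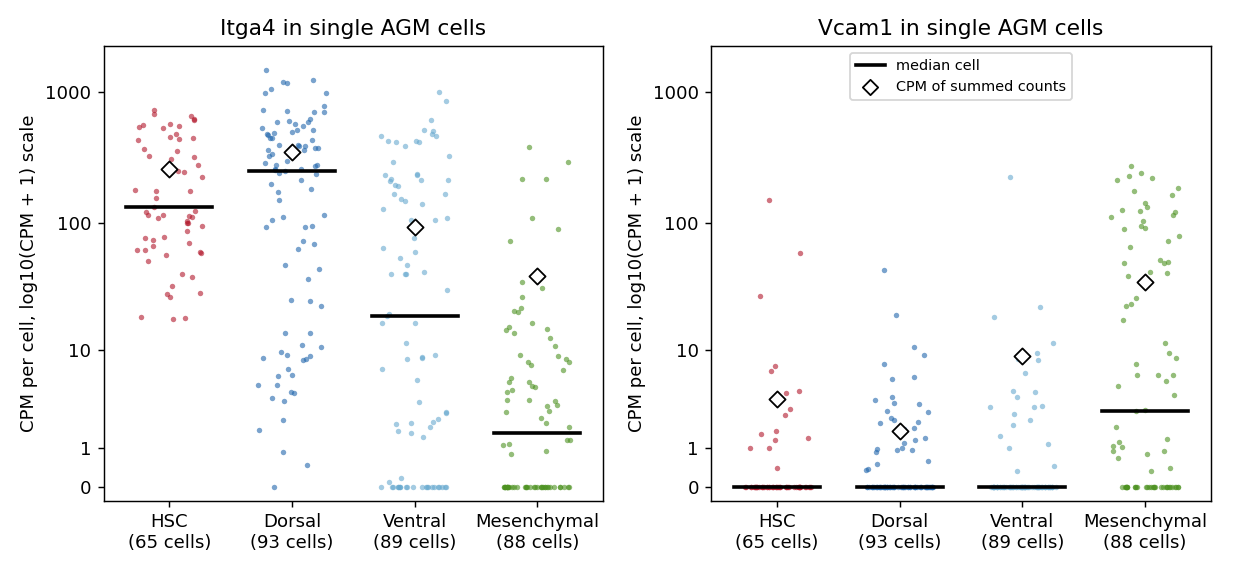
Itga4 (left) and Vcam1 (right) in each cell of the HSC, Dorsal, Ventral and Mesenchymal groups, in CPM on a log10(CPM + 1) scale; each point is 1 cell, each bar the group's median cell and each open diamond the CPM of summed counts. Every HSC cell lies above 0 for Itga4, at 17.98 CPM or more, while for Vcam1 the Mesenchymal group is the one whose median, 2.81 CPM, is above 0.

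Shares of positive cells gave the order HSC, Dorsal, Ventral, Mesenchymal for Itga4. A cell was called positive with at least 5 counts after its counts were thinned at random to 310000, so that depth was equal; 1 HSC, 1 Dorsal, 9 Ventral and 19 Mesenchymal cells were too shallow and were left out. Itga4 was positive in 63 of 64 HSC cells (98.4%, exact Clopper-Pearson 95% limits 91.6% to 99.96%) and in 69 of 92 Dorsal cells (75%, 64.9% to 83.4%). It was positive in 38 of 80 Ventral cells (47.5%, 36.2% to 58.98%) and in 14 of 69 Mesenchymal cells (20.3%, 11.6% to 31.7%). These limits describe the sampling of cells within 1 pool each and do not compare conditions. Without thinning the shares were 100% in HSC cells, 82.8% in Dorsal cells, 59.6% in Ventral cells and 23.9% in Mesenchymal cells. The summed level put Dorsal above HSC and the share put HSC above Dorsal: a smaller share of Dorsal cells was positive, and their range reached higher.

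In HSC against Mesenchymal cells, Itga4 stood 2.70 higher on the log2(CPM + 1) scale used for every fold here (counting limits 2.63 to 2.77). In Dorsal against Ventral cells it stood 1.89 higher in Dorsal (1.84 to 1.93), and in Ventral against Mesenchymal cells 1.24 higher in Ventral (1.16 to 1.32). The log2 fold of HSC over Dorsal was -0.42 (-0.45 to -0.39), and its sign turned to 0.73 when the means of the deposited log2 values were compared instead. Among all measured genes, those whose counts over both groups reached 100, 16.6% of 12758 were at least 2-fold higher in HSC than in Mesenchymal, 10.1% of 13152 higher in Dorsal than in Ventral and 17.1% of 13065 higher in Ventral than in Mesenchymal. The Mesenchymal level was set largely by 1 cell. Mesenchymal 25 held 1660 of the 2678 Mesenchymal counts (61.98%), and without the cell with the most Itga4 counts in each group the levels were 231 CPM in HSC, 332 CPM in Dorsal, 84.9 CPM in Ventral and 15.9 CPM in Mesenchymal. The folds were then 3.79 for HSC over Mesenchymal and 2.35 for Ventral over Mesenchymal. Cells with an odd and an even i7 index, 1 of the 2 barcodes of a library, gave 8.33 and 64.9 CPM in Mesenchymal, with Mesenchymal 25 among the even ones, against 213 and 290.2 CPM in HSC.

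Mesenchymal 25 carried mesenchymal and smooth muscle RNA at high levels. It held 385 CPM of Itga4 and 0 of Vcam1, with Pdgfrb at 505.01 CPM and Acta2, smooth muscle actin, at 8976 CPM. Its summed level of 7 smooth muscle markers, 13474 CPM, ranked 4 of 88. Sox10, a transcription factor of neural crest and glia, Ptprc and Cdh5, an endothelial cadherin, were each at 0 in this cell. Its summed level of the 8 crest and Schwann cell precursor markers was nonetheless 87.7 CPM, rank 7 of 88, where the median Mesenchymal cell was at 0 and the highest at 299 CPM. Of 18 Mesenchymal cells that shared an i7 or an i5 index with it, 4 had at least 5 Itga4 counts, against 16 of 69 others. In HSC, Itga4 per cell showed Spearman correlations of 0.25 with Kit, the stem cell factor receptor, 0.16 with Runx1, 0.15 with Cd34 and -0.10 with Procr over 65 cells, which share 1 pool. The correlations with these genes are weak, and none marked out a set of HSC cells by its Itga4. With the summed level of the 7 measured mesenchyme markers the correlation was -0.44. That sum was 3.77 CPM in the median HSC cell and 196 CPM in the highest. For the other marker lists the correlation in HSC lay between -0.16 and 0.24.

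Vcam1 was highest in Mesenchymal cells. With all cells its summed level put the groups in the order opposite to Itga4, though not its share of positive cells. That order did not hold without the cell with the most Vcam1 counts in each group, when Ventral was lowest, at 0.94 CPM. With all cells, Vcam1 counts were 302 in HSC cells, 184 in Dorsal cells, 983 in Ventral cells and 2399 in Mesenchymal cells. These were 3.66 CPM (3.26 to 4.10) in HSC, 1.69 CPM (1.46 to 1.96) in Dorsal, 8.89 CPM (8.34 to 9.46) in Ventral and 34.997 CPM (33.6 to 36.4) in Mesenchymal. The median cell was at 0 in HSC, Dorsal and Ventral, with 48 of 65, 61 of 93 and 67 of 89 cells at 0. In Mesenchymal cells the median was 2.81 CPM, the upper quartile 55.8 CPM and the highest cell 272 CPM, with 32 of 88 at 0. Vcam1 was thus present in a part of the Mesenchymal cells and sparse in every other group. It was positive after thinning in 3 of 64 HSC cells (4.69%, 0.98% to 13.1%), 2 of 92 Dorsal cells (2.17%, 0.26% to 7.63%), 2 of 80 Ventral cells (2.5%, 0.30% to 8.74%) and 27 of 69 Mesenchymal cells (39.1%, 27.6% to 51.6%). Unthinned, 10.8% of HSC, 8.60% of Dorsal, 12.4% of Ventral and 37.5% of Mesenchymal cells had at least 5 counts.

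Outside the Mesenchymal group, single cells set the summed Vcam1 level. Ventral 21 held 883 of the 983 Ventral counts (89.8%), HSC 52 held 157 of the 302 HSC counts (52.2%) and Dorsal 31 held 72 of the 184 Dorsal counts (39.3%). In Mesenchymal the cell with the most counts held 16.8%. Without these cells Vcam1 stood at 1.77 CPM in HSC, 1.04 CPM in Dorsal, 0.94 CPM in Ventral and 30.5 CPM in Mesenchymal. The log2 fold of HSC over Mesenchymal was -2.95 (-3.14 to -2.76) with all cells and -3.51 without them, and that of Ventral over Mesenchymal -1.86 (-2.00 to -1.73) with all cells and -4.02 without them. HSC over Dorsal was 0.79 (0.52 to 1.05) with all cells, 0.44 without them and -0.94 in even-index cells. Dorsal over Ventral was -1.88 (-2.09 to -1.66) with all cells and 0.07 without them, so that its direction rested on Ventral 21. At least 2-fold higher in Mesenchymal were 22.6% of all genes measured against HSC and 12.9% of those measured against Ventral, and 8.3% were at least 2-fold higher in Ventral than in Dorsal.

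Ventral 21 was a macrophage-like cell by its RNA. It held Vcam1 at 224 CPM and Itga4 at 110.4 CPM, beside Mrc1, the macrophage mannose receptor, at 2261 CPM, Csf1r, the receptor for macrophage colony-stimulating factor, at 1849 CPM, C1qa at 932 CPM and Adgre1 at 200.7 CPM. Sox10 stood at 0.23 CPM and Ngfr at 0.47 CPM, and Pdgfrb was at 0. Of 17 Ventral cells that shared an i7 or i5 index with Ventral 21, 4 had at least 5 Vcam1 counts, against 6 of 71 others. HSC 52 held Vcam1 at 150 CPM and Itga4 at 71.1 CPM, with Procr at 125 CPM, Ptprc at 88.4 CPM and Cdh5 at 100.7 CPM. Its summed haematopoietic markers, 1392 CPM against a median of 2221 CPM, ranked 58 of 65, and its summed smooth muscle markers, 484 CPM against a median of 20.9 CPM, ranked 4. Its mesenchyme markers, at 34.04 CPM, ranked 3 and its neuron markers, at 81.8 CPM, ranked 6. The part of RNA from other cells in its Vcam1 was not tested. Of 15 HSC cells that shared an index with HSC 52, 4 had at least 5 Vcam1 counts, against 2 of 49 others. In Dorsal, for Dorsal 31, the count was 1 of 18 against 6 of 74, and in Mesenchymal, for Mesenchymal 24, 2 of 17 against 30 of 70. The share was thus larger among index-sharing cells in HSC and Ventral and smaller in Dorsal and Mesenchymal, and the part of barcode sharing was not tested.

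Both genes were found together in few cells, but few cells outside Mesenchymal were positive for Vcam1 at all. Of the Vcam1-positive cells, 2 of 3 in HSC, 2 of 2 in Dorsal, 2 of 2 in Ventral and 6 of 27 in Mesenchymal were also positive for Itga4. Itga4 and Vcam1 were both positive in 2 of 64 HSC cells, 2 of 92 Dorsal cells, 2 of 80 Ventral cells and 6 of 69 Mesenchymal cells. Of the other Mesenchymal cells, 8 were positive for Itga4 alone, 21 for Vcam1 alone and 34 for neither. In HSC 61 of 64 cells were positive for Itga4 alone. The Spearman correlation of both genes per cell was -0.12 among HSC cells, 0.19 among Dorsal, -0.07 among Ventral and 0.03 among Mesenchymal cells. Cells of a group share a pool, and most Vcam1 values outside Mesenchymal are 0.

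**Figure D2:**
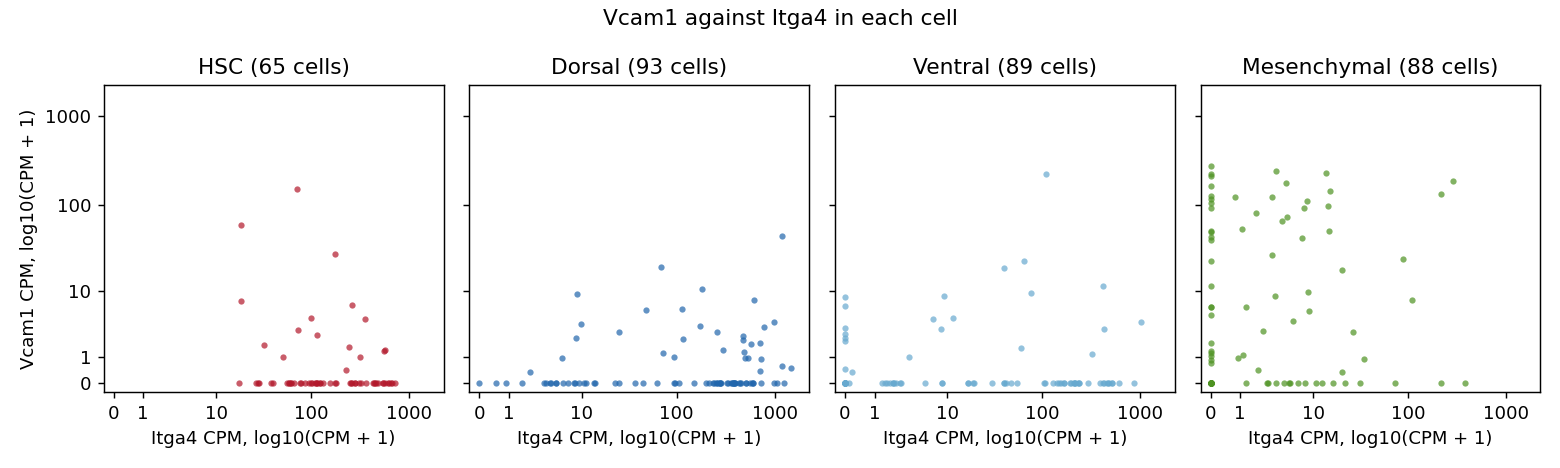
Vcam1 (vertical axis) against Itga4 (horizontal axis) in each cell, both in CPM on a log10(CPM + 1) scale, 1 panel per group in the order HSC, Dorsal, Ventral, Mesenchymal; each point is 1 cell. Most HSC cells, and most Itga4-positive Dorsal and Ventral cells, lie along the Itga4 axis, in groups where few cells were positive for Vcam1. Of 69 thinned Mesenchymal cells, 21 were positive for Vcam1 alone, 8 for Itga4 alone, 6 for both genes and 34 for neither.

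The beta1 subunit that pairs with alpha4 was present in nearly all cells. Itgb1 stood at 213 CPM in HSC, 398 CPM in Dorsal, 331 CPM in Ventral and 386 CPM in Mesenchymal, and was positive in 62 of 64, 90 of 92, 76 of 80 and 69 of 69 thinned cells in that order. Of the cells positive for Itga4, 61 of 63 HSC cells and all 69 Dorsal, 38 Ventral and 14 Mesenchymal cells were also positive for Itgb1. Per kilobase of the longest coding transcript, the Itga4 level was 26.6 CPM in HSC, 35.6 CPM in Dorsal, 9.56 CPM in Ventral and 3.999 CPM in Mesenchymal, and the Itgb1 level 55.9 CPM in HSC, 104 CPM in Dorsal, 86.7 CPM in Ventral and 101 CPM in Mesenchymal. By that measure Itgb1 exceeded Itga4 in all 4 groups. Per cell the Spearman correlation of Itga4 with Itgb1 was 0.31 in HSC cells, 0.54 in Dorsal cells, 0.36 in Ventral cells and 0.02 in Mesenchymal cells. Itgb7, the alternative partner, stood at 5.49 CPM in HSC, with 68.3% of its counts in 1 cell, and at 0.67 CPM or less in each other group. It was positive in 3 of 64 HSC cells, 0 of 92 Dorsal cells (exact upper limit 3.93%, where 3 cells would make 3.26%), 2 of 80 Ventral cells and 1 of 69 Mesenchymal cells.

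Fibronectin, the matrix ligand of alpha4 beta1, was high where Vcam1 was high but also in HSC cells. Fn1 stood at 557 CPM in HSC, 78.1 CPM in Dorsal, 74.02 CPM in Ventral and 750.1 CPM in Mesenchymal. It was positive in 61 of 64 HSC cells, 60 of 92 Dorsal cells, 52 of 80 Ventral cells and 69 of 69 Mesenchymal cells. Its log2 fold was -0.43 for HSC over Mesenchymal, 2.82 for HSC over Dorsal, 0.08 for Dorsal over Ventral and -3.32 for Ventral over Mesenchymal. All 27 Mesenchymal cells positive for Vcam1 were positive for Fn1. In HSC 60 cells were positive for both Itga4 and Fn1, against 52 cells in Dorsal, 23 in Ventral and 14 in Mesenchymal. The receptor subunit and its matrix ligand were thus both detected in most HSC cells.

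The other measured ligands of alpha4 integrins differed in where they were found. Thbs1 and Thbs2 encode matrix thrombospondins. Thbs1 stood at 10.04 CPM in HSC, 3.11 CPM in Dorsal, 1.72 CPM in Ventral and 26.3 CPM in Mesenchymal, and Thbs2 at 0.95 CPM in HSC, 4.18 CPM in Dorsal, 0.49 CPM in Ventral and 37.3 CPM in Mesenchymal. Emilin1, an elastic fibre glycoprotein, stood at 159 CPM in HSC, 109 CPM in Dorsal, 94.7 CPM in Ventral and 220 CPM in Mesenchymal. All 3 were highest in Mesenchymal. Spp1, or osteopontin, had 0 counts in HSC and stood at 10.05 CPM in Dorsal, 8.17 CPM in Ventral and 2.13 CPM in Mesenchymal. Against a floor of 3 counts in the HSC group this is at least 276-fold lower in HSC than in Dorsal, although 1 cell held 69.7% of the Dorsal Spp1 counts. Jam2, a junctional adhesion molecule, stood at 17.2 CPM in HSC, 23.1 CPM in Dorsal, 16.6 CPM in Ventral and 8.38 CPM in Mesenchymal. Madcam1, the gut addressin that binds alpha4 beta7, is not analysed here.

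**Figure D3:**
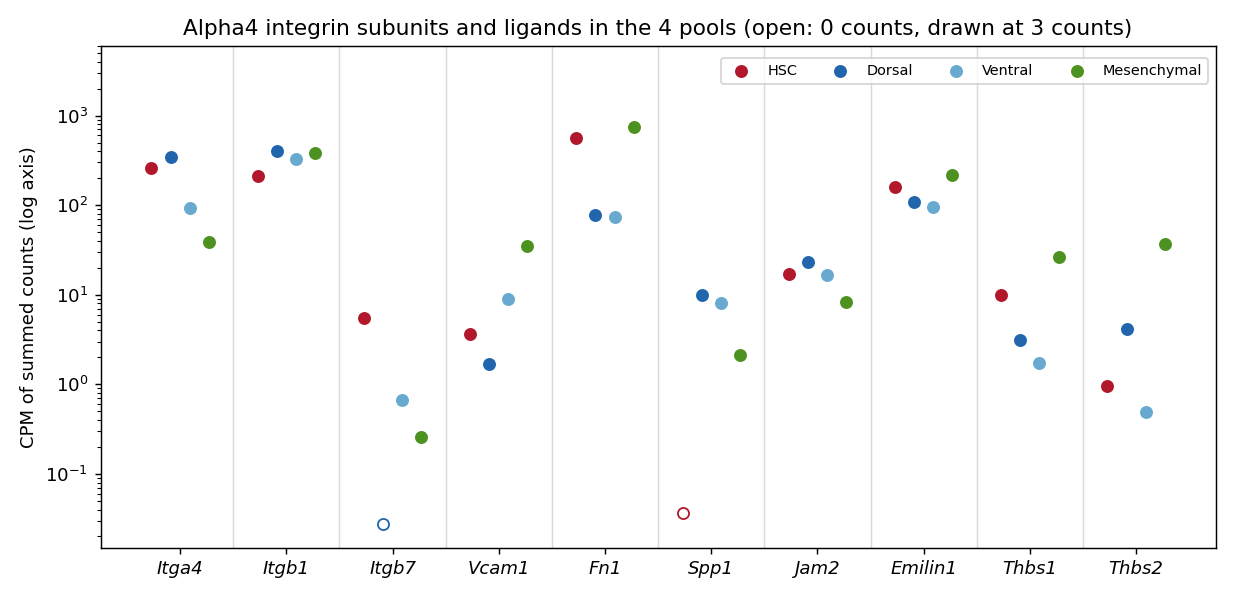
CPM of summed counts (log axis) of Itga4, Vcam1 and the partner and ligand genes in the HSC, Dorsal, Ventral and Mesenchymal pools; each point is 1 pool, no error bar is drawn, and an open point marks 0 counts, drawn at 3 counts. Itga4 is lowest in Mesenchymal at 39.1 CPM and Vcam1 highest there at 34.997 CPM, while Itgb1 lies between 213 and 398 CPM in all 4 pools.

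Within the Ngfr+ pools, Itga4 followed the kind of cell. Dorsal and Ventral cells were clustered together on 2000 variable genes without Itga4, Vcam1 or any adhesion gene listed here. The split into 6 clusters is a description of these cells and no test. Cluster 2 was neural crest and Schwann cell precursor-like, with all 8 markers of that kind at least 2-fold above the other clusters, and took in 58 Dorsal and 17 Ventral cells. Cluster 1 was macrophage-like (13 of 13 detected markers, 7 Dorsal and 10 Ventral cells) and cluster 3 sympathoadrenal-like (7 of 8 detected markers, 21 Dorsal and 12 Ventral cells), with 7 of 7 neuron markers higher as well. Clusters 4 to 6 stay unnamed. Cluster 4 was led by Glb1l2, Thbd and Myo5b (5 Dorsal and 24 Ventral cells), cluster 5 by Sall1, Meox1 and Meox2 (1 Dorsal and 14 Ventral cells) and cluster 6 by Acta2, Fras1 and Grin2b (1 Dorsal and 12 Ventral cells). Cluster 2 thus held most Dorsal cells and a minority of Ventral cells.

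Itga4 was highest in cluster 2 on both sides of the aorta. In its Dorsal cells it ran from 6.91 CPM through a median of 390.1 CPM to 1476 CPM, and in its Ventral cells from 47.98 CPM through a median of 414 CPM to 1009 CPM. It was positive in 55 of 57 Dorsal and 16 of 16 Ventral cells of the cluster. Crest-like cells of both pools were thus nearly all positive, at median levels that differed little beside their range. In the sympathoadrenal-like cluster 3 the median was 8.55 CPM in Dorsal and 2.35 CPM in Ventral cells, and 6 of 21 and 3 of 11 cells were positive. In the macrophage-like cluster 1 it was 72.8 CPM in Dorsal and 93.7 CPM in Ventral cells, and 10 of 15 cells of both pools were positive. Cluster 4 was uneven, with 3 of 5 Dorsal and 9 of 22 Ventral cells positive and a highest cell of 509 CPM against a Ventral median of 2.53 CPM. In cluster 5 no cell of 13 was positive (exact upper limit 24.7%), and in cluster 6 there were 5 of 12.

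**Figure D4:**
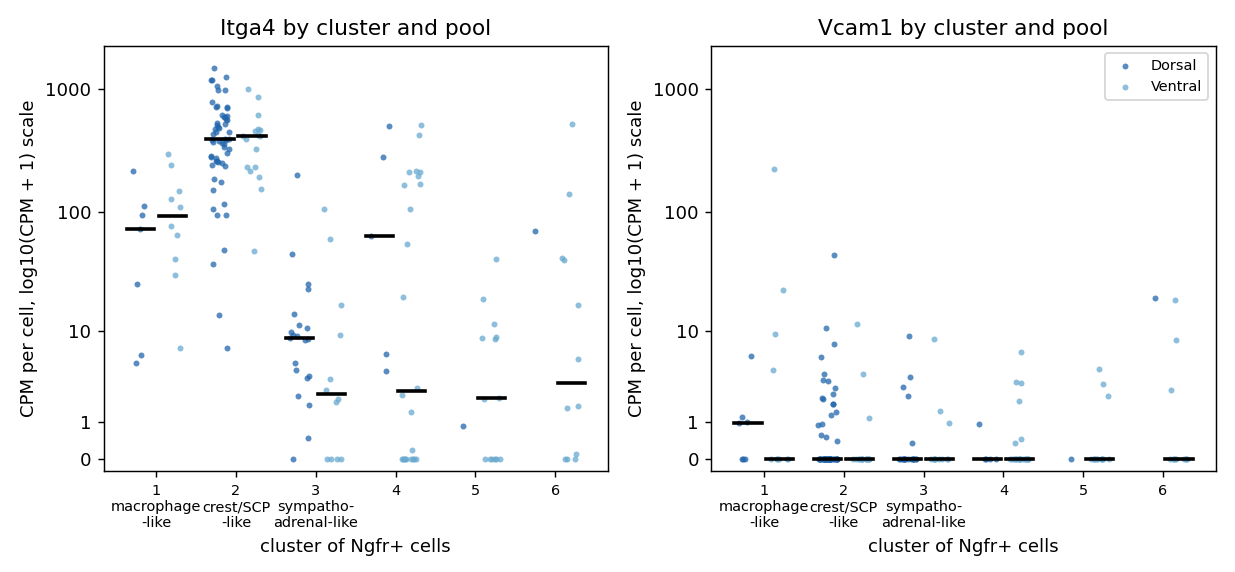
Itga4 (left) and Vcam1 (right) per cell in the 6 clusters of Ngfr+ cells, with Dorsal cells left of Ventral cells, in CPM on a log10(CPM + 1) scale; each point is 1 cell and each bar the median of 2 or more cells. Cluster 2, the crest-like one, has the highest Itga4 medians, 390.1 CPM in Dorsal and 414 CPM in Ventral cells, and the one Vcam1 point above 200 CPM is the Ventral cell of cluster 1.

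The Itga4 difference between the Dorsal and Ventral pools varied by cluster. It was smaller in clusters 1, 2 and 3 than over all cells. In clusters 4 and 6, with few Dorsal cells, Itga4 was clearly higher in Dorsal. The part of cell composition in the pool difference was not tested. With cluster 2 cells alone the log2 fold of Dorsal over Ventral was 0.58, from 486 CPM in Dorsal and 325 CPM in Ventral cells, and the medians ran the other way. Without cluster 2 it was 0.76, and without the macrophage-like cluster 1 it was 1.99, against 1.89 with all cells. In cluster 4 Itga4 stood at 219 CPM in 5 Dorsal cells and 70.02 CPM in 24 Ventral cells. In cluster 6 it stood at 69.5 CPM in 1 Dorsal cell and 14.3 CPM in 12 Ventral cells. Dorsal and Ventral levels were 77.8 and 105 CPM in cluster 1 and 19.3 and 19.6 CPM in cluster 3. In cluster 5 they were 0.86 CPM, from 1 Dorsal cell, and 4.83 CPM. Per cell, Itga4 showed a Spearman correlation of 0.71 in Dorsal and 0.56 in Ventral with the summed level of the 8 crest and Schwann cell precursor markers. That sum ran from 11.3 through a median of 1683 to 5499 CPM in Dorsal and from 0 through 176 to 4748 CPM in Ventral cells. With the 8 measured sympathoadrenal markers the correlation was -0.46 in Dorsal and -0.13 in Ventral, and with the 7 neuron markers -0.49 in Dorsal and -0.20 in Ventral. In Dorsal it was also 0.59 with the 7 measured mesenchyme markers and 0.58 with the 7 smooth muscle markers. With the cell's total count it was 0.24 in Dorsal and -0.05 in Ventral. The correlations are over cells of 1 pool each.

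Vcam1 was sparse in the Ngfr+ clusters, with its largest share of positive cells in cluster 6. After thinning it was positive in 1 of 73 cells of cluster 2, in 0 of 32, 0 of 27 and 0 of 13 cells of clusters 3, 4 and 5, and in 2 of 12 cells of cluster 6. The exact upper limits of these counts of 0 are 10.9% in cluster 3, 12.8% in cluster 4 and 24.7% in cluster 5. In cluster 6 the share was 16.7% with limits of 2.09% to 48.4%. These limits take in the 39.1% of Mesenchymal cells and also the 2.5% of all Ventral cells, so they place cluster 6 with neither. In that cluster 6 of 7 detected mesenchyme markers were at least 2-fold above the other clusters. In cluster 1 Vcam1 was positive in 1 of 15 cells, Ventral 21. The macrophage-like cells therefore did not share a Vcam1 level: their median was 0.94 CPM in Dorsal and 0 CPM in Ventral cells.

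In Mesenchymal cells Vcam1 followed none of the marker lists closely. Its Spearman correlation per cell was 0.12 with the summed mesenchyme markers, -0.02 with the smooth muscle markers, -0.01 with the pericyte markers and 0.23 with the macrophage markers, over 88 cells. The macrophage sum was 0 CPM in the median Mesenchymal cell and 49.7 CPM in the highest, with 6 of its 13 measured markers at 0 counts. The correlation with the cell's total count was 0.03. The part of macrophage RNA in the Vcam1 of Mesenchymal cells was not tested.

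Genes most like each member were ranked by the Spearman correlation of CPM per cell, among genes with at least 5 counts in 10% of cells. Over the cells of all 4 groups and 10777 genes the closest to Itga4 were Pdlim1 (0.59), Mef2c (0.58), Rasa3 (0.57), Ppp1r18 (0.54) and Fgd5 (0.54). Within the 93 Dorsal cells, over 10807 genes, they were Moxd1 (0.75), Lmo4 (0.75), Postn (0.73), Phactr1 (0.72) and Sfrp1 (0.72), all different from the first 5. For Vcam1 over all cells they were Pdgfra (0.39), Cd248 (0.37), Col1a1 (0.35), Cdh3 (0.34) and Pdgfrb (0.33), which include the receptor used to sort the Mesenchymal cells. Pdgfra and Cd248 are surface proteins of mesenchymal cells and Col1a1 is a collagen chain. Within the 88 Mesenchymal cells, over 9831 genes, they were Ppp1r37 (0.42), Cttnbp2 (0.41), Fam213b (0.38), Pak1ip1 (0.38) and Btbd10 (0.35). Vcam1 was at 0 in 32 of these cells. Whether these values exceed the largest that so many unrelated genes would reach was not tested. Values over all cells carry the differences between the 4 pools.

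The other adhesion genes differed widely between HSC and Mesenchymal cells. Of 9 measured alpha subunits other than alpha4, 3 were at least 2-fold higher in HSC (background 16.6% of all genes) and 3 higher in Mesenchymal (background 22.6%), with a median log2 fold of -0.92 against -0.10 over all genes. The leukocyte subunits Itgam (15.9 CPM in HSC and 0.13 CPM in Mesenchymal) and Itgal (8.02 and 0.03 CPM) were higher in HSC, and the collagen receptor subunit Itga1 (0.02 CPM, from 2 counts, in HSC and 18.8 CPM in Mesenchymal) and Itga8 (0.08 and 13.5 CPM) higher in Mesenchymal. Of 5 beta subunits, 3 were higher in HSC and 2 in Mesenchymal (median 1.58). Itgb2, the leukocyte beta subunit, stood at 13.5 CPM in HSC and had 0 counts in Mesenchymal, at least 308-fold higher. Itgb3, the platelet and vitronectin receptor subunit, stood at 25.2 CPM in HSC and 1.51 CPM in Mesenchymal. Itgb5 stood at 0.25 CPM in HSC and 71.4 CPM in Mesenchymal. Itgb8 had 0 counts in HSC and 14.4 CPM in Mesenchymal, at least 396-fold lower in HSC.

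Vcam1 was one of many immunoglobulin-family adhesion genes higher in Mesenchymal than in HSC cells. Of 19 other measured members, 4 were at least 2-fold higher in HSC and 10 in Mesenchymal, against 16.6% and 22.6% of all genes, with a median of -1.27. Ncam1, the neural cell adhesion molecule, stood at 1.68 CPM in HSC and 285 CPM in Mesenchymal. Icam2 stood at 71.4 CPM in HSC and had 0 counts in Mesenchymal, at least 1632-fold higher. Esam, an endothelial junction protein, stood at 200 CPM in HSC and 2.62 CPM in Mesenchymal. Icam1, a ligand of the leukocyte integrins, stood at 50.4 CPM in HSC and 0.78 CPM in Mesenchymal.

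Integrin adaptors and activators differed in both directions between HSC and Mesenchymal. Of 20 measured adaptors and activators, 5 were at least 2-fold higher in HSC and 7 in Mesenchymal, against 16.6% and 22.6% of all genes, with a median of 0.00. Fermt3, the kindlin of blood cells, stood at 66.4 CPM in HSC and 0.66 CPM in Mesenchymal, and Apbb1ip, which links Rap1 to talin, at 28.1 CPM in HSC and 0.10 CPM in Mesenchymal. Ptk2b, a focal adhesion kinase relative, stood at 69.5 CPM in HSC and 0.03 CPM, from 2 counts, in Mesenchymal. Parva, an actin-linking parvin, stood at 1.80 CPM in HSC and 197 CPM in Mesenchymal. Of 7 measured selectins, selectin ligands and CD44, 6 were higher in HSC and 0 in Mesenchymal (median 3.80). Cd34 stood at 706.9 CPM in HSC and 11.99 CPM in Mesenchymal, Selplg at 48.8 and 2.56 CPM, and Selp at 17.5 CPM in HSC cells, at least 401-fold above the 0 counts in Mesenchymal cells.

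Genes of the cytokine and NF-kB route that induces Vcam1 in endothelium included many that were higher in HSC, where Vcam1 was low. Of 18 measured members, 10 were at least 2-fold higher in HSC and 2 in Mesenchymal, against 16.6% and 22.6% of all genes, with a median of 1.46. Without each gene's top cell in each group 9 were higher in HSC and 1 in Mesenchymal. Il1r1, Il1b and Tnf, named because 1 cell held 85.5%, 78.6% and 76.9% of their HSC counts, were then within 2-fold. Ltb, lymphotoxin beta, stood at 27.3 CPM in HSC and had 0 counts in Mesenchymal, at least 625-fold higher. Il4ra stood at 22.2 CPM in HSC and 1.05 CPM in Mesenchymal, where 1 cell held all its counts. Il4 stood at 9.12 CPM in HSC and 0.78 CPM in Mesenchymal, and Tnfrsf1b, a receptor for tumour necrosis factor, at 5.71 and 0.30 CPM. Of 6 genes of ectodomain shedding, the process that frees Vcam1 from the membrane, 0 were higher in HSC and 3 in Mesenchymal (median -0.92): Rhbdf1 (5.40 CPM in HSC and 27.1 CPM in Mesenchymal), Adam9 (10.7 and 27.4 CPM) and Timp3 (31.1 and 63.96 CPM). Timp3 inhibits the sheddases and stood within 2-fold, at a log2 fold of -0.77, without the top cell of each group. Adam17, the main Vcam1 sheddase, was not among the 3.

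Against Dorsal cells, whose Itga4 level was the nearest to that of HSC cells, HSC cells still differed in other adhesion genes. At least 2-fold higher were 11.3% of all 13123 measured genes in HSC and 25.3% in Dorsal, and the median over all genes was -0.26. In HSC and in Dorsal, the members higher were 3 and 5 of 11 alpha subunits, 2 and 2 of 5 beta subunits, 5 and 12 of 19 immunoglobulin-family genes, 6 and 7 of 20 adaptors, 8 and 0 of 18 cytokine and NF-kB genes, 0 and 4 of 6 shedding genes and 6 and 0 of 7 selectins and ligands. The alpha subunits included Itga2b, the platelet alpha subunit (11.1 CPM in HSC and 1.30 CPM in Dorsal), and Itgav, the vitronectin receptor subunit (13.5 and 79.4 CPM). Itgb5 stood at 0.25 CPM in HSC and 29.97 CPM in Dorsal. L1cam, a neural adhesion molecule, stood at 2.46 CPM in HSC and 102 CPM in Dorsal, and Mcam at 4.99 and 215 CPM. Rasgrp2, an activator of Rap1 in blood cells, stood at 138 CPM in HSC and 10.6 CPM in Dorsal. Cd44 stood at 264 CPM in HSC and 23.9 CPM in Dorsal, and Nfkb1 at 108 and 23.2 CPM. Rhbdf1, which guides the sheddase Adam17 to the surface, stood at 5.40 CPM in HSC and 64.6 CPM in Dorsal.

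Between Dorsal and Ventral cells most members of the adhesion lists stood within 2-fold, as did most of all measured genes. In Dorsal and in Ventral, the members at least 2-fold higher were 2 and 1 of 11 alpha subunits, 2 and 0 of 5 beta subunits, 6 and 2 of 19 immunoglobulin-family genes, 3 and 2 of 21 adaptors, 0 and 4 of 17 cytokine and NF-kB genes, 2 and 0 of 6 shedding genes and 0 and 0 of 5 selectins and ligands. The background was 10.1% in Dorsal and 8.3% in Ventral, with a median over all genes of 0.14. Higher in Dorsal were Alcam (107 CPM in Dorsal and 22.1 CPM in Ventral) and Mcam (215 and 63.2 CPM), both immunoglobulin-family members, Itgb8 (17.98 and 3.38 CPM), and the focal adhesion proteins vinculin, Vcl (73.4 and 18.95 CPM), and paxillin, Pxn (35.9 and 11.4 CPM). With all cells 9 list members were higher in Ventral. When each gene's top cell in each group was left out there were 5, not all of them among the 9. In Dorsal 20 instead of 16 were then higher. With cells weighted equally the balance turned, with 9 members higher in Dorsal and 13 in Ventral, and 435 and 731 of all genes. Itga8 (6.53 CPM in Dorsal and 23.4 CPM in Ventral) stood higher in Ventral with a log2 fold of -1.70, and -1.79 without the top cells. For others 1 cell held most counts. The Ventral top cell held 85.2% of Il1b counts (1.52 CPM in Dorsal and 52.7 CPM in Ventral), 66.2% of Icam1 counts (7.75 and 26.9 CPM) and 65.9% of Nfkb1 counts (23.2 and 51.5 CPM). Without the top cell of each group the log2 folds were -2.88 for Il1b, -0.86 for Icam1 and -0.02 for Nfkb1.

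Ventral and Mesenchymal cells come from the same side of the aorta and differed in the sorted receptor. In Ventral and in Mesenchymal, the members at least 2-fold higher were 2 and 3 of 10 alpha subunits, 2 and 2 of 5 beta subunits, 5 and 3 of 19 immunoglobulin-family genes, 8 and 4 of 21 adaptors, 5 and 2 of 17 cytokine and NF-kB genes, 1 and 1 of 6 shedding genes and 2 and 1 of 5 selectins and ligands. The background was 17.1% in Ventral and 12.9% in Mesenchymal, with a median over all genes of 0.09. Higher in Mesenchymal were Itga9, the alpha subunit closest to alpha4 in sequence and also a Vcam1 receptor (24.02 CPM in Ventral and 96.6 CPM in Mesenchymal), the fibronectin receptor subunit Itga5 (15.01 and 35.2 CPM) and Vcl (18.95 and 87.1 CPM). L1cam was higher in Ventral (48.2 CPM in Ventral and 0.90 CPM in Mesenchymal). Macrophage-like cells made up 10 of the 89 Ventral cells. Itgb2 had 5.91 CPM in Ventral cells, at least 135-fold above the 0 counts in Mesenchymal cells, and Fermt3 at 21.7 CPM in Ventral and 0.66 CPM in Mesenchymal, with 63.5% of the Ventral counts in 1 cell. Itgal (3.17 CPM in Ventral and 0.03 CPM in Mesenchymal) had 82.6% of its Ventral counts in 1 cell. The part of macrophage-like cells in these values was not tested.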

How the data were processed

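Single cells were sequenced by Smart-seq2, and each cell is 1 sample of the series. The deposited table holds estimated counts per gene that the authors made with kallisto 0.43.1 on GRCm38, per the submitters' processing notes; the annotation, the summing of transcripts and the filters are not given in the sources used here. In the deposited log2 table the authors scaled each cell's estimated counts by a size factor and added 1 before the log. A single factor per cell explained 100% of the values checked for genes with a symbol, within 1e-06. Values at or near 0 were not checked. Size factors average 1 and run from 0.0985 to 19.6. Of 14109 entries, the 661 without a symbol (2.96% of counts) were left out.

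Counts were summed per group and divided by the group total (CPM). Folds are log2 ratios of (CPM + 1), with limits from the exact Poisson limits of both sums. A gene at 0 counts in a group was set at a floor of 3 counts over the group. Positive cells, thinning and clusters (log2(CPM/10 + 1), 20 principal components, Ward linkage) are as stated in the report, with Python 3.11.15, numpy 2.4.6, pandas 2.3.3, SciPy 1.17.1 and scikit-learn 1.9.0. Clusters were named from marker lists, and other names could result from other settings. No doublet caller was run on cells sorted singly into wells. All 96 index pairs (12 i7, 8 i5) were used in more than 1 pool. The largest correlation between cells was 0.784, and no cell duplicated another. Limits cover counting error only, and reads carry no molecular identifiers. Dock10 took 6.98% and Cep97 2.20% of the counts.

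The members and the lists were chosen with earlier results of these data known. Of 112 genes on 8 lists, 95 were found. Named are both members, every measured partner or ligand, and up to 4 members of each other list with the largest fold, except 1 gene not reported here; genes shown within single cells and cluster leaders were chosen after their values were seen. Since each group is 1 sample, no test was run. The fold calculation was tested on simulated counts with counting error only. They held no spread between cells of a group, so they check the calculation and not the error of these folds.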

Additional observations from a re-analysis of the deposited data

How the results depend on the processing

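Of 74 alternatives to the member folds, 14 moved less than the counting limits and the rest moved further. The sign turned in 7: in 5 for Vcam1 in Dorsal over Ventral, and once each for Itga4 (0.73) and Vcam1 (-0.94) in HSC over Dorsal, whose reported folds are under 2-fold. The Itga4 folds below are in the order HSC over Mesenchymal, HSC over Dorsal, Dorsal over Ventral and Ventral over Mesenchymal. Weighting cells equally gave 3.47, -0.41, 1.27 and 2.62, and the authors' log2 values 5.46, 0.73, 2.48 and 2.25. Leaving out the deepest cell of each group gave 2.57, -0.42, 1.58 and 1.41. Odd-index cells gave 4.52, -0.62, 1.62 and 3.53, and even-index cells 2.14, -0.35, 2.21 and 0.29. Totals without Dock10 and Cep97 gave 2.75, -0.32, 1.93 and 1.14, and a pseudocount of 10 CPM 2.46, -0.41, 1.79 and 1.08.

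The Vcam1 folds in the same order were -3.04, 1.02, -0.93 and -3.14 with equal weights, -2.43, 0.0075, 0.014 and -2.45 with the authors' log2 values, -2.95, 0.86, -2.11 and -1.70 without the deepest cells, -2.05, 1.91, -2.81 and -1.15 in odd-index cells, -4.46, -0.94, 0.67 and -4.19 in even-index cells, and -1.72, 0.22, -0.69 and -1.25 with a pseudocount of 10 CPM. Ventral 21 has an odd index.

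These alternatives were added after the data were seen. Without the cell with the most counts of the member in each group, the folds were 3.79, -0.52, 1.95 and 2.35 for Itga4 and -3.51, 0.44, 0.075 and -4.02 for Vcam1. With each gene's top cell left out, 5 list members were counted higher in Ventral than in Dorsal, against 9 with all cells. For Dorsal over Ventral, cluster 2 alone gave 0.58 for Itga4 and 0.55 for Vcam1, and all but cluster 2 gave 0.76 and -2.55. Without cluster 1, Itga4 gave -0.52 for HSC over Dorsal and 1.99 for Dorsal over Ventral, and Vcam1 gave 0.58 for Dorsal over Ventral and -4.32 for Ventral over Mesenchymal.

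With at least 1 count, positive shares were 100%, 93.5%, 63.8% and 46.4% for Itga4 in HSC, Dorsal, Ventral and Mesenchymal, and 15.6%, 19.6%, 18.8% and 52.2% for Vcam1. With at least 20 counts Itga4 gave 82.8% in HSC, 35% in Ventral and 8.70% in Mesenchymal, and Vcam1 0% in Dorsal and 24.6% in Mesenchymal. Without thinning, Itga4 gave 100% in HSC and 59.6% in Ventral, and Vcam1 8.60% in Dorsal and 12.4% in Ventral.

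Of 56 alternative counts, 47 stayed within 1.5 times. A minimum of 1000 counts lowered the list members higher in HSC than in Mesenchymal to 21, against 32, those higher in Dorsal than in Ventral to 10, against 16, those higher in Ventral than in Dorsal to 5, against 9, those higher in Ventral than in Mesenchymal to 14, against 26, and all genes higher in Mesenchymal than in HSC to 1862, against 2879. Equal weights lowered the list members higher in Dorsal than in Ventral to 9, with 13 higher in Ventral, against 16 and 9, and all genes higher in Dorsal to 435, with 731 higher in Ventral, against 1330 and 1092, and all genes higher in Mesenchymal than in Ventral to 1003, against 1679. No paired analysis was possible because each group is 1 pool and the replicate numbers only name cells. The spread between embryos was not measured here.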
